A study of Mus musculus with 6 samples.

Results

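The mitochondrial ribosomal proteins described here are the 76 genes on the array whose symbols start with Mrpl or Mrps followed by a digit, 48 of the large subunit (Mrpl) and 28 of the small subunit (Mrps). They were chosen by name from 21225 probe sets, 20239 of which carry 1 gene symbol, and each gene had 1 probe set. Ventricle RNA of 129/Sv mice labelled male and aged 3.5 weeks was measured on Affymetrix Mouse Gene 1.0 ST arrays. Of these, 3 arrays were labelled Hspa4-/- and 3 Hspa4+/+ (wild type). Each array is taken to be 1 mouse, since the labels give 3 mice per genotype. How the Hspa4 locus was altered is not stated in the labels, so whether the probes lie inside the deleted stretch is not known here. The question addressed is how these genes differ between hearts without and with Hspa4, a chaperone gene of the Hsp110 group whose product helps Hsp70 proteins release their clients.

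The mitochondrial ribosome, or mitoribosome, sits at the inner mitochondrial membrane and translates the few messenger RNAs of mitochondrial DNA, all of which encode core subunits of the respiratory chain and ATP synthase. Its RNAs come from mitochondrial DNA, while all of its proteins come from nuclear genes, are made in the cytosol and are imported. The small subunit reads the messenger RNA and the large subunit joins the amino acids. The heart depends on respiration, and in humans defects in several of these genes cause cardiomyopathy.

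On 1 array the label and the Hspa4 level disagreed. Replicates 1, 2 and 3 labelled Hspa4-/- had Hspa4 log2 values of 9.33, 6.63 and 6.75, against 9.74, 9.50 and 9.48 in wild type, and the exact two-sided permutation test over 6 arrays gave p = 0.1, the smallest that 3 against 3 can give. Xist, normally expressed from the inactive X chromosome of females, was also high on that array, at 7.68 against 5.51 to 5.69 on the other arrays. This goes against the male label of that array. The 6-array differences may thus mix sex with genotype, which was not tested. The differences of the members are therefore given with all 6 arrays and again with 5, leaving that array out. Hspa4 differed by −2.01 (SE 0.58; limma, adjusted p = 0.263) with 6 arrays and by −2.89 (SE 0.10; limma, adjusted p = 9.37e-06) with 5. The array was left out for its Hspa4 value, so the 5-array SE and p of Hspa4 follow from that choice and are no test. The tissue label fitted the cardiomyocyte genes Myh6, Tnnt2 and Actn2, which read at or above 11.83 on every array. A difference below is the mean log2 value labelled Hspa4-/- less that of wild type, given with its standard error (SE) from limma, and a gene passes when its Benjamini-Hochberg adjusted p over all 20239 genes is under 0.05.

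Promoter sequences are shown for 4 members with small p, 3 on the lower side (Mrpl50, Mrps33 and Mrpl51) and Mrpl52 on the higher side, because Mrpl50 carries the single call and the others had the next smallest p among members with an entry in the promoter table, on 6 arrays for the lower side and on 5 arrays for the higher side. Each is the 200 bases before the start of the gene in RefSeq (GRCm38.p6), 5′ to 3′ on the strand of the gene, and capitals mark a match to the motif CCGGAAG of GABP, an Ets factor known to bind promoters of nuclear genes for mitochondrial proteins.
Mrpl50, chr4:49521084-49521283, minus strand: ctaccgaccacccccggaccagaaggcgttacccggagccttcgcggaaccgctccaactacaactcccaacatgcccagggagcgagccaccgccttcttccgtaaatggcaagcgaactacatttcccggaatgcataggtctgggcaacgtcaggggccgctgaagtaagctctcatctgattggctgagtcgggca
Mrps33, chr6:39810937-39811136, minus strand: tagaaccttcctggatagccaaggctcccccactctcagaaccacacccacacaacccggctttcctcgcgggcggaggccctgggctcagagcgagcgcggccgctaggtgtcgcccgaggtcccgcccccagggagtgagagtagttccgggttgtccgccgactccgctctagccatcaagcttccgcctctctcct
Mrpl51, chr6:125192000-125192199, plus strand: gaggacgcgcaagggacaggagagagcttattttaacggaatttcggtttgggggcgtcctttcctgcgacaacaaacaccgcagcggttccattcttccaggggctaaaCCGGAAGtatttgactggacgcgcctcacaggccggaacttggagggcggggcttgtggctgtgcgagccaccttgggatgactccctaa
Mrpl52, chr14:54426709-54426908, plus strand: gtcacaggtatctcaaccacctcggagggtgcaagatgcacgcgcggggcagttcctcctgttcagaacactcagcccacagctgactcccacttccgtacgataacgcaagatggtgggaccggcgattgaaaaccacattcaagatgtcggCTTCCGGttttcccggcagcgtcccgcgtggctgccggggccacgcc
The window of Mrpl50 held no match. Mrpl51 had 1, starting at base −90 from the gene start, and Mrpl52 had 1 on the opposite strand at base −47. Mrps33 had 1 match and Mrpl52 a further one just inside the gene, both on the opposite strand, at bases 39 and 3, beyond the stretch shown.

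Mrpl50, which encodes a large-subunit protein with no counterpart in bacterial ribosomes, was the only member past the threshold in the unweighted model of the values as deposited, and there only with 5 arrays. Replicates 1, 2 and 3 labelled Hspa4-/- read 7.60, 7.19 and 7.35 for Mrpl50 (log2), against 8.05, 7.93 and 7.85 in wild type. All 3 arrays labelled Hspa4-/- lay below all 3 wild-type arrays, and replicate 1 was the nearest to wild type. With 6 arrays it averaged 7.38 ± 0.20 on the arrays labelled Hspa4-/- and 7.94 ± 0.10 in wild type (SD, n = 3 each), a difference of −0.56 (SE 0.10; limma, adjusted p = 0.210). With 5 arrays Mrpl50 fell 1.59-fold (log2 difference −0.67, SE 0.09; limma, adjusted p = 0.0237).

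The count of members that passed was 0 of 76 with 6 arrays, where 0% of all genes passed (limma), and 1 of 76 with 5 arrays, where 0.44% of all genes did. The call of Mrpl50 with 5 arrays ended when array medians were subtracted (adjusted p = 0.0533) and when any 1 further array other than wild-type replicate 2 was left out. In those 4 fits its difference lay between −0.59 and −0.75 with an adjusted p from 0.0766 to 0.144 (limma), and the fits that leave out Hspa4-/- replicate 2 or 3 rest on 1 array of that label, which is assumed to vary like the wild type. With all 6 arrays, limma's array weights let Mrpl50 pass (difference −0.67, adjusted p = 0.0451). That difference is the size of the 5-array one and not the −0.56 of the unweighted 6 arrays. The pass is therefore not separate from leaving out Hspa4-/- replicate 1. With 5 arrays, Mrps33 and Mrpl52 passed beside it with array weights, and Mrps33, Mrpl52 and Mrps26 passed beside it without wild-type replicate 2, where 875 of all genes did (limma).

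**Figure D1:**
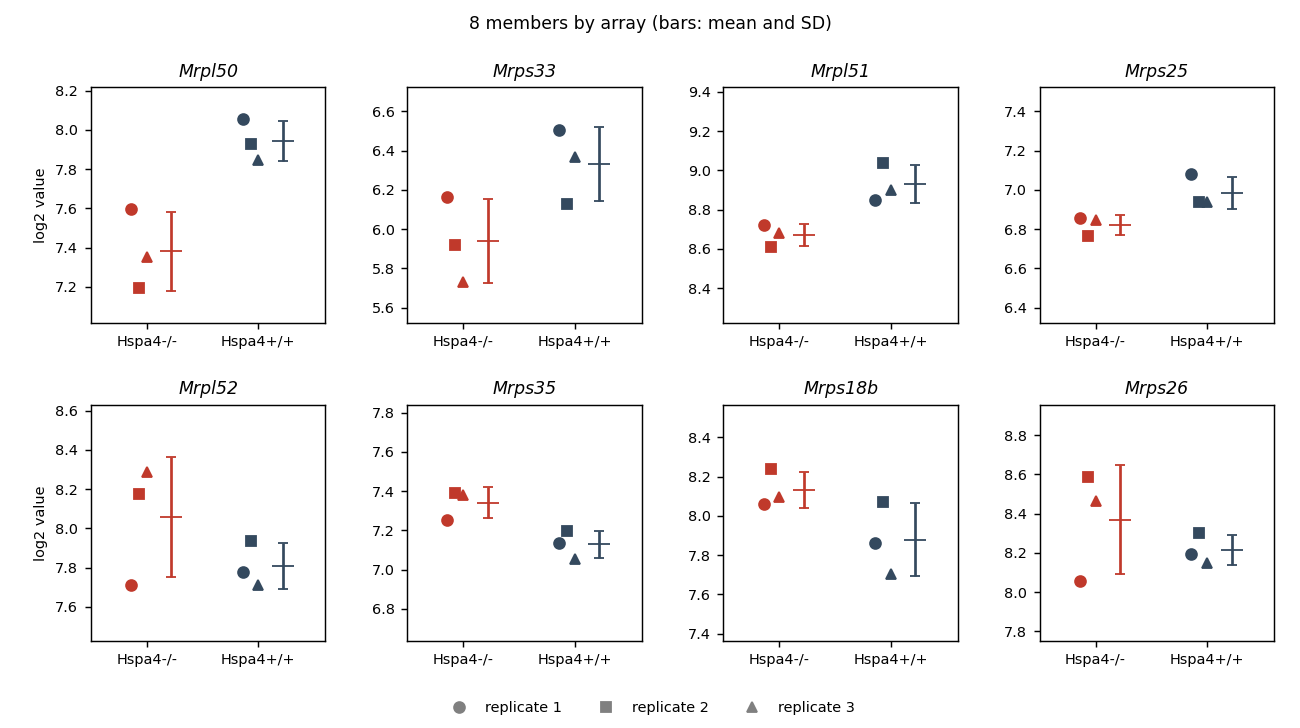
Log2 values of 8 members on each array, with the arrays labelled Hspa4-/- left of wild type (Hspa4+/+), a marker shape for each replicate number and bars for the mean and SD of 3 arrays. Mrpl50 shows the widest gap between groups, while replicate 1 of Hspa4-/- lies within wild type for Mrpl52 and below it for Mrps26.

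Zfp189, a zinc finger gene that starts 93 bases from Mrpl50 on the other strand, ranged from 7.08 to 7.34 over the 6 arrays. It read 7.22, 7.19 and 7.10 on the arrays labelled Hspa4-/-, against 7.34, 7.23 and 7.08 in wild type, so the groups overlapped. Its difference was −0.05 (SE 0.08; limma, adjusted p = 0.891) with 6 arrays and −0.07 (SE 0.09; limma, adjusted p = 0.767) with 5. The difference between the 2 genes was not itself tested.

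Among the other members of the large subunit that were lower, Mrpl51 and Mrpl57, both without bacterial counterparts, had separated groups. Mrpl51 read 8.72, 8.61 and 8.68 on the arrays labelled Hspa4-/-, against 8.85, 9.04 and 8.90 in wild type (difference −0.26, SE 0.07; limma, adjusted p = 0.253). With 5 arrays its difference was −0.29 (SE 0.08; limma, adjusted p = 0.153). All of its Hspa4-/- values, replicate 1 included, were below the lowest wild-type value. The Mrpl57 value was −0.16 (SE 0.07; limma, adjusted p = 0.447), with Mrpl42 at −0.15 (SE 0.07) and Mrpl17, near the exit of the peptide tunnel, at −0.14 (SE 0.07). For each of these 3 the 2 groups did not overlap, though the gap between the nearest arrays was small. With 5 arrays Mrpl57 stood at −0.11, Mrpl42 at −0.15 and Mrpl17 at −0.15. Mrpl39, which resembles a threonyl-tRNA synthetase, read 10.76, 10.53 and 10.51 on the arrays labelled Hspa4-/-, against 10.76, 10.86 and 10.62 in wild type. Its replicate 1 stood at the wild-type level, and the difference was −0.15 (SE 0.09) with 6 arrays and −0.23 (SE 0.08; limma, adjusted p = 0.257) with 5.

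In the small subunit, Mrps33, another protein specific to mitochondria, had the lowest difference. Mrps33 read 6.16, 5.92 and 5.73 on the arrays labelled Hspa4-/-, against 6.50, 6.13 and 6.37 in wild type. Replicate 1 of Hspa4-/- was above wild-type replicate 2, so the groups overlapped with 6 arrays and separated with 5. The difference was −0.39 (SE 0.12; limma, adjusted p = 0.285) with 6 arrays and −0.51 (SE 0.11; limma, adjusted p = 0.0949) with 5. Mrps25, whose human counterpart is a mitochondrial disease gene, read 6.86, 6.76 and 6.84 on the arrays labelled Hspa4-/-, against 7.08, 6.94 and 6.94 in wild type. Its groups did not overlap (−0.16, SE 0.07; limma, adjusted p = 0.421). Mrps14, a head protein of the small subunit linked to cardiomyopathy in humans, differed by −0.11 (SE 0.06; limma, adjusted p = 0.595), also without overlap. With 5 arrays Mrps25 stood at −0.18 (SE 0.08) and Mrps14 at −0.10 (SE 0.07).

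On the higher side no member passed, and replicate 1 of Hspa4-/- often lay apart from the other arrays of its label. Mrpl52 read 7.71, 8.18 and 8.29 on the arrays labelled Hspa4-/-, against 7.78, 7.93 and 7.71 in wild type. Replicate 1 stood within the wild-type range and both other arrays above it, so the difference was 0.25 (SE 0.14; limma, adjusted p = 0.550) with 6 arrays and 0.42 (SE 0.09; limma, adjusted p = 0.0778) with 5. Mrps26 read 8.06, 8.59 and 8.46 on the arrays labelled Hspa4-/-, against 8.20, 8.30 and 8.15 in wild type, with replicate 1 the lowest of all 6. Its difference was 0.15 (SE 0.12; limma, adjusted p = 0.721) with 6 arrays and 0.31 (SE 0.08; limma, adjusted p = 0.125) with 5.

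Mrps35 was the higher member of the small subunit with the smallest p on 6 arrays, and its replicate 1 lay with its label. Mrps35 read 7.25, 7.39 and 7.38 on the arrays labelled Hspa4-/-, against 7.14, 7.20 and 7.06 in wild type. The groups did not overlap, and the difference was 0.21 (SE 0.07; limma, adjusted p = 0.308) with 6 arrays and 0.26 (SE 0.07; limma, adjusted p = 0.156) with 5. In the large subunit, Mrpl43, Mrpl53 and Mrpl55 were higher without overlap, by 0.12 (SE 0.07), 0.14 (SE 0.07) and 0.15 (SE 0.07), with adjusted p of 0.555, 0.484 and 0.479 (limma). With 5 arrays they stood at 0.16, 0.11 and 0.19. Mrpl38, which has no bacterial counterpart, stood at 0.18 (SE 0.10), and Mrps27, an RNA-binding protein of the pentatricopeptide repeat family, at 0.16 (SE 0.09). In both the groups overlapped, and with 5 arrays they stood at 0.22 and 0.17.

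In all, with 6 arrays, the groups did not overlap in 4 members that were higher, where 6.08% of all genes were higher without overlap, and in 7 that were lower, where 9.07% of all genes were. As a share of 76 these are 5.26% and 9.21%, close to the shares over all genes. An unadjusted p under 0.05 (limma) was reached by 2 higher members, or 2.63% against 5.64% of all genes, and by 4 lower members, or 5.26% against 5.53%. Of the 3539 genes whose mean level lay within the members' interquartile range, 12.6% were higher and 7.94% lower at that p, both above the members' shares, a contrast that was not tested.

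With 5 arrays the members leaned upward more than the whole array did, a contrast that was not tested. An unadjusted p under 0.05 (limma) was reached by 13 higher members, 17.1% of 76 against 8.55% of all genes, and by 5 lower members, 6.58% against 6.36%. Groups did not overlap in 21 higher members, 27.6% against 14.4% of all genes, and in 9 lower members, 11.8% against 18.9%. Over the same 3539 genes of like mean level, 18.6% were higher and 7.01% lower at that unadjusted p with 5 arrays, so the members' 17.1% and 6.58% lay close to genes of their own level. Of the 13 higher members, 6 belong to the large subunit and 7 to the small. Examples from the small subunit are Mrps15, with a bacterial counterpart, at 0.27 (SE 0.08; limma, adjusted p = 0.153) and Mrps21 at 0.26 (SE 0.08; limma, adjusted p = 0.174). From the large subunit, Mrpl54 differed by 0.26 (SE 0.07; limma, adjusted p = 0.150) and Mrpl44, which carries a ribonuclease III-like domain and is a human cardiomyopathy gene, by 0.26 (SE 0.08; limma, adjusted p = 0.195).

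**Figure D2:**
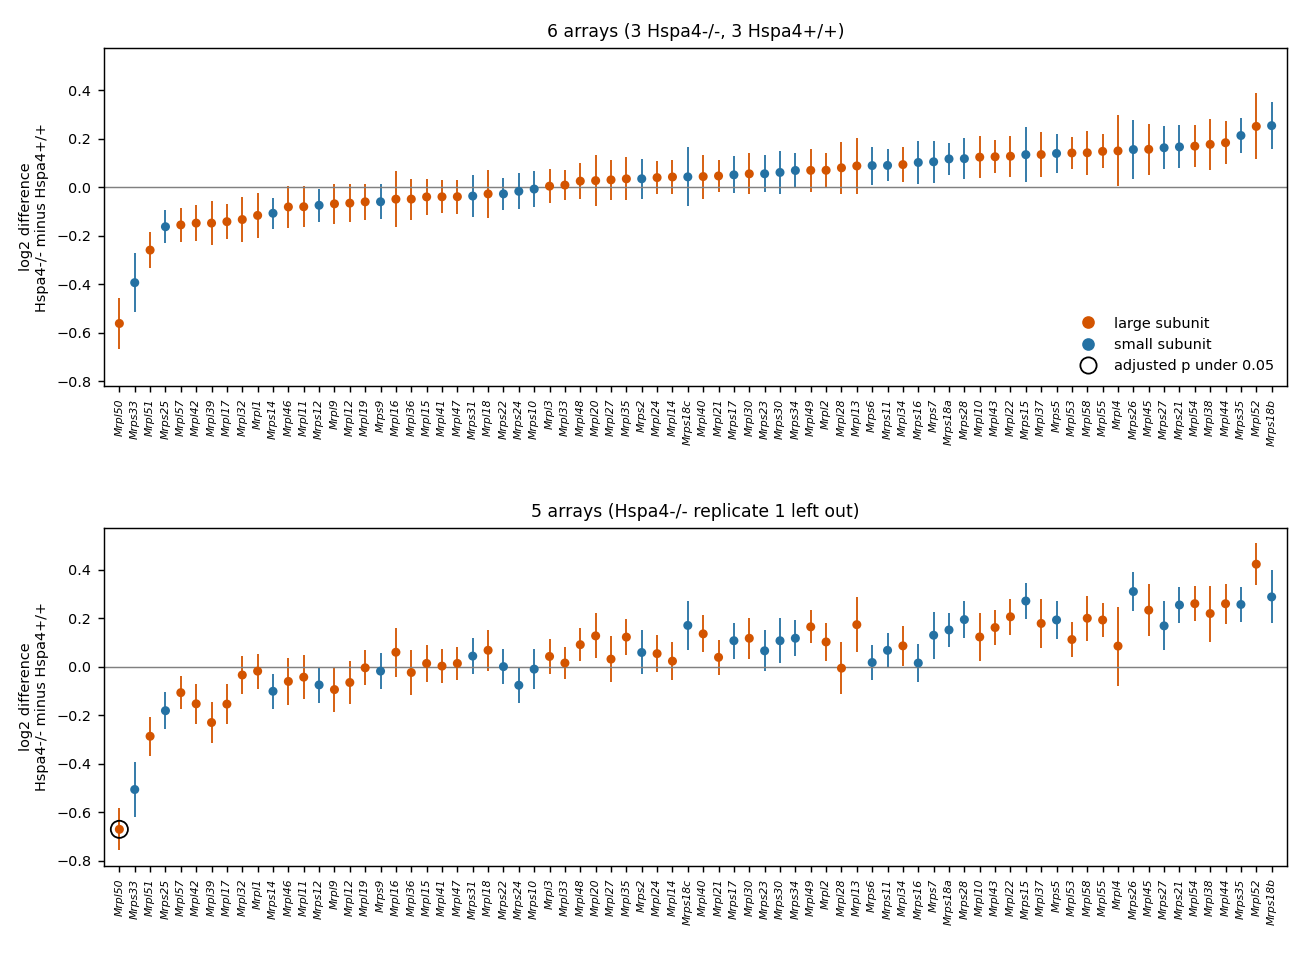
Log2 difference (arrays labelled Hspa4-/- minus wild type) of each of the 76 members with limma's SE, in the order of the 6-array values in both panels, for 6 arrays (top) and 5 arrays (bottom). Mrpl50, at the far left, is the one circled member with an adjusted p under 0.05, in the 5-array panel.

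By subunit, the median difference was 0.03 over the 48 large-subunit genes and 0.06 over the 28 small-subunit genes with 6 arrays, against −0.01 over all genes. With 5 arrays these medians were 0.06 and 0.09, against −0.02 over all genes. A positive difference was found in 29 of 48 and 19 of 28 members with 6 arrays, and in 33 of 48 and 21 of 28 with 5. Over all 76 members these are 63.2% and 71.1%, against 45.8% and 43.3% of all genes. Of the 3539 genes of like mean level, 2043 with 6 arrays and 2249 with 5 were positive, with medians of 0.03 and 0.05. These contrasts were not tested. The large-subunit median was −0.0003 without Hspa4-/- replicate 2, −0.006 without Hspa4-/- replicate 3 and 0.0002 without wild-type replicate 3, so its sign rested on single arrays. Quantile normalisation lowered the medians to 0.01 and 0.04 with 6 arrays and to 0.02 and 0.07 with 5. Mrps18a and Mrps30 carry small-subunit names but belong to the large subunit in mammalian mitoribosome structures. Counting them there gave medians of 0.04 and 0.06 with 6 arrays, and of 0.064 and 0.067 with 5, so the 2 subunits then lay close together with 5 arrays.

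Many differences were of the size of the spread between mice, more so with 6 arrays than with 5. With 6 arrays, 41 of 76 members differed by less than 0.1, 35 by 0.1 or more and 6 by 0.2 or more. With 5 arrays 42 differed by 0.1 or more and 16 by 0.2 or more, of which 12 were higher and 4 lower. The median SD within a group was 0.10 over the arrays labelled Hspa4-/-, replicate 1 included, and 0.08 over wild type. The median SE of a difference was 0.08. In 8 members the sign turned between 6 and 5 arrays, the largest being Mrpl28, at 0.08 with 6 and −0.005 with 5. Mrpl16 stood at −0.05 with 6 arrays and 0.06 with 5, Mrpl15 at −0.04 and 0.01, and Mrpl41 at −0.04 and 0.003. Mrpl47 stood at −0.04 and 0.01, Mrpl18 at −0.03 and 0.07, Mrps31 at −0.04 and 0.04, and Mrps22 at −0.03 and 0.001.

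**Figure D3:**
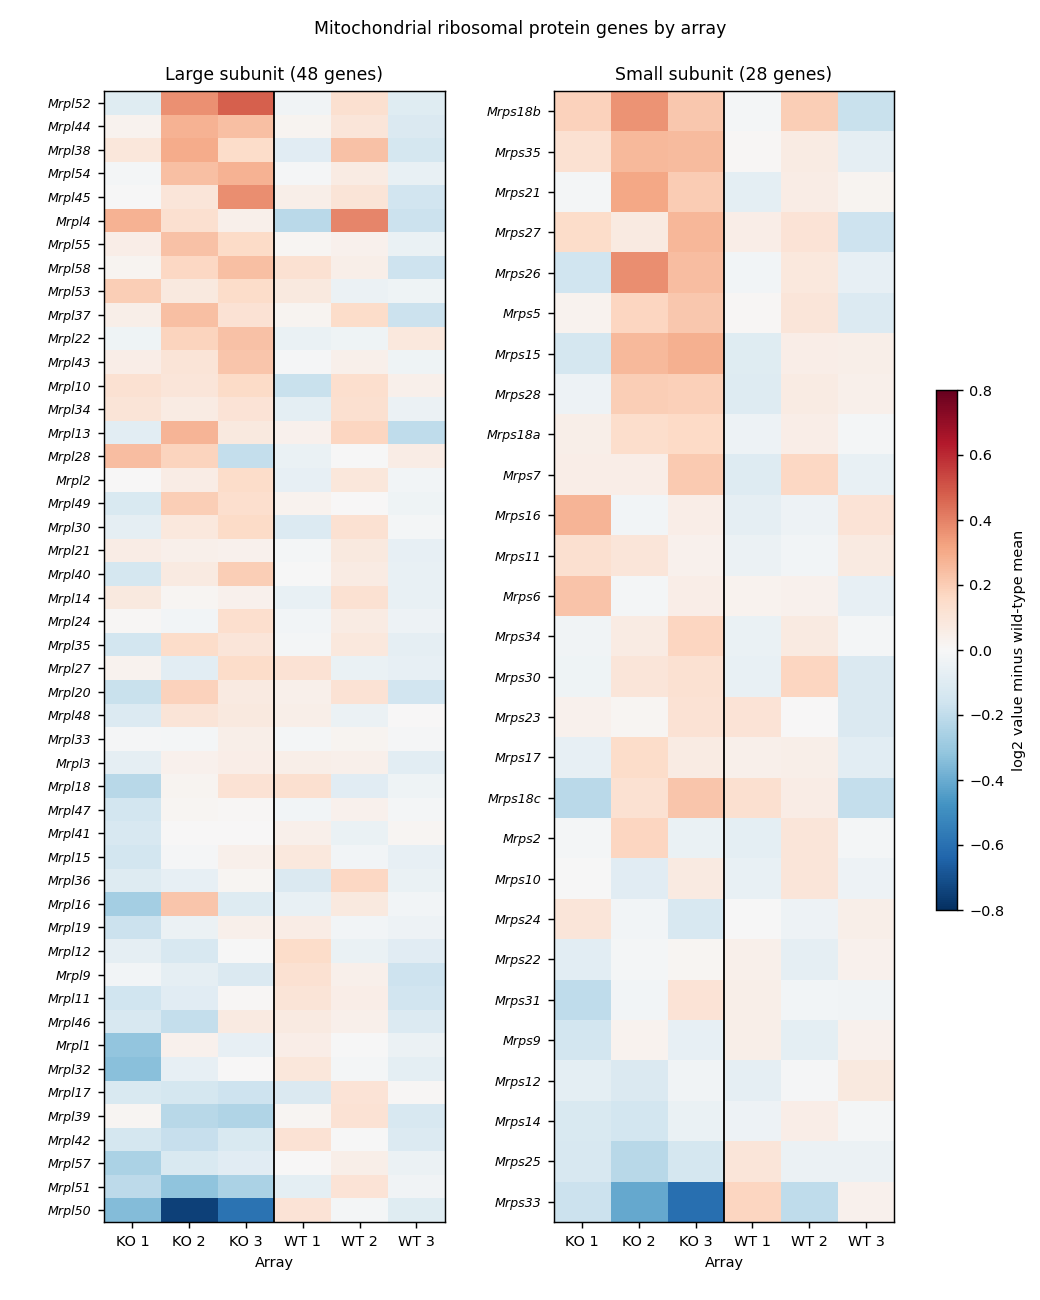
Log2 value minus the wild-type mean for each member (rows) on each array (columns, with the arrays labelled Hspa4-/-, marked KO, left of wild type, marked WT), large subunit left and small subunit right, sorted by the 6-array difference. Mrpl50 and Mrps33 are the bluest rows on Hspa4-/- replicates 2 and 3, and many rows are blue on Hspa4-/- replicate 1 and wild-type replicate 3 alike.

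Across arrays the members moved partly as a block that did not follow the labels. Set against each gene's wild-type mean, the median of the 76 members was −0.04, 0.06 and 0.07 in Hspa4-/- replicates 1, 2 and 3, against −0.001, 0.05 and −0.05 in wild type. Wild-type replicate 2 thus lay near Hspa4-/- replicates 2 and 3, and Hspa4-/- replicate 1 near wild-type replicate 3. Replicate 1 was the lowest of the Hspa4-/- arrays in 60.5% of the members, against 32.8% of all genes, and replicate 2 the highest of the wild-type arrays in 59.2%, against 32.6% of all genes. Among the 3539 genes of like mean level (7.07 to 8.04, members left out), those shares were 54.4% and 51.7%. Their median difference was 0.03 with 6 arrays and 0.05 with 5.

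The spread of an array's values moved with this pattern. The SD over all probe sets was 1.20, 1.25 and 1.27 on the arrays labelled Hspa4-/-, against 1.23, 1.25 and 1.19 in wild type, and the members' median was highest on the array with the highest SD and lowest on the array with the lowest. Its part in the members' values was not tested beyond the quantile normalisation given above.

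**Figure D4:**
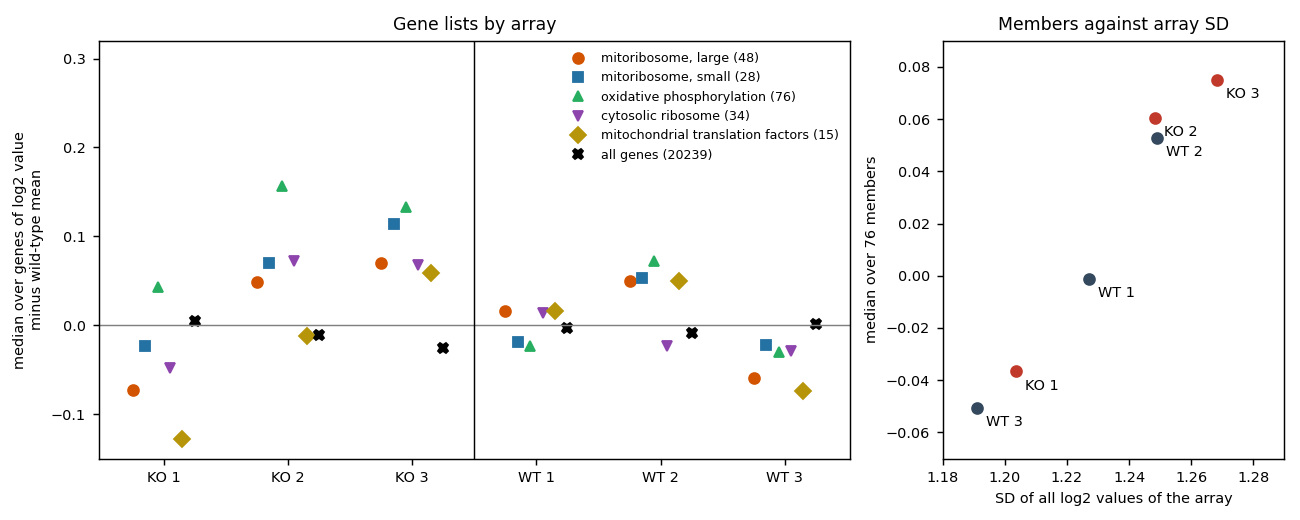
Left, the median over the genes of each list of the log2 value minus the wild-type mean, by array (Hspa4-/-, marked KO, left of wild type, marked WT; number of genes in brackets). Right, the median of the 76 members against the SD of all log2 values of the array; the members' median runs from −0.05 on wild-type replicate 3 to 0.07 on Hspa4-/- replicate 3.

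Members grouped by role gave no group that stood out by its calls. Of the stalk that recruits translation factors, Mrpl12, which also binds the mitochondrial RNA polymerase in humans, read 7.41, 7.36 and 7.48 on the arrays labelled Hspa4-/-, against 7.63, 7.43 and 7.39 in wild type (difference −0.07, SE 0.08). Mrpl10, its anchor, differed by 0.12 (SE 0.09) and Mrpl11, at the stalk base, by −0.08 (SE 0.08). The groups overlapped in all 3 genes, and the adjusted p lay between 0.664 and 0.835 (limma, 6 arrays). With 5 arrays Mrpl12 stood at −0.06, Mrpl10 at 0.12 and Mrpl11 at −0.04.

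Near the peptidyl transferase centre and the peptide tunnel, Mrpl2 differed by 0.07 (SE 0.07), Mrpl3 by 0.004 (SE 0.07), Mrpl22 by 0.13 (SE 0.08) and Mrpl4 by 0.15 (SE 0.15), with 6 arrays. Mrpl4 was the most variable of them in wild type, at 8.90, 9.50 and 8.93, against 9.38, 9.24 and 9.15 on the arrays labelled Hspa4-/-. Mrpl45, which holds the ribosome at the inner membrane, differed by 0.16 (SE 0.11), and Mrpl58, a peptidyl-tRNA hydrolase that rescues stalled ribosomes, by 0.14 (SE 0.09). Their adjusted p lay between 0.633 and 0.994 (limma). With 5 arrays Mrpl2 stood at 0.10, Mrpl3 at 0.04, Mrpl22 at 0.21, Mrpl4 at 0.09, Mrpl45 at 0.23 and Mrpl58 at 0.20, with adjusted p between 0.245 and 0.850 (limma).

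In the small subunit, Mrps12, of the decoding centre, read 6.43, 6.39 and 6.47 on the arrays labelled Hspa4-/-, against 6.43, 6.49 and 6.58 in wild type (difference −0.08, SE 0.07). Mrps5, which bears on decoding accuracy, differed by 0.14 (SE 0.08), Mrps7 by 0.10 (SE 0.09) and Mrps2 by 0.03 (SE 0.08). Mrps16, Mrps22 and Mrps34, whose human counterparts are mitochondrial disease genes, differed by 0.10 (SE 0.09), −0.03 (SE 0.07) and 0.07 (SE 0.07). The adjusted p of these 7 genes lay between 0.577 and 0.928 (limma, 6 arrays). With 5 arrays Mrps12 stood at −0.07, Mrps5 at 0.19, Mrps7 at 0.13, Mrps2 at 0.06, Mrps16 at 0.02, Mrps22 at 0.001 and Mrps34 at 0.12, with adjusted p between 0.306 and 0.996 (limma).

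The paralogs Mrps18a, Mrps18b and Mrps18c descend from 1 bacterial protein and occupy different places in the mitoribosome. Mrps18b read 8.06, 8.24 and 8.10 on the arrays labelled Hspa4-/-, against 7.86, 8.07 and 7.70 in wild type, with wild-type replicate 2 inside the Hspa4-/- range. Its difference of 0.25 (SE 0.10; limma, adjusted p = 0.379) was the highest of the 76 members with 6 arrays. Mrps18a differed by 0.12 (SE 0.07) and Mrps18c by 0.04 (SE 0.12), with adjusted p of 0.573 and 0.941 (limma). With 5 arrays Mrps18a stood at 0.15, Mrps18b at 0.29 and Mrps18c at 0.17, with adjusted p of 0.347, 0.267 and 0.477 (limma). For Mrps18c, Hspa4-/- replicates 2 and 3 read 9.33 and 9.43, against 9.34, 9.27 and 9.02 in wild type, and Hspa4-/- replicate 1 was the lowest of all 6 arrays, so the groups overlapped.

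Sorted by origin, the 29 large-subunit genes with a bacterial counterpart had a median difference of 0.03 and the 19 specific to mitochondria 0.07, with 6 arrays. In the small subunit the 18 with a counterpart had a median of 0.09 and the 10 without 0.06. With 5 arrays the large-subunit medians were 0.04 with a counterpart and 0.14 without, and those of the small subunit 0.09 and 0.09, and the differences between these classes were not tested. The lowest 4 differences of all members (Mrpl50, Mrps33, Mrpl51 and Mrps25) belong to proteins specific to mitochondria. The positive end held both kinds, with Mrps18b of bacterial descent beside Mrpl52 and Mrps35 without it.

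Promoter windows from 250 bases before to 50 bases after the gene start were in the RefSeq table for 67 of the 76 members and for 15651 genes of the array. The GABP motif CCGGAAG, searched on both strands, was present in 38.8% of the members' promoters and 13.5% of all promoters. The YY1 motif AAGATGGC was present in 17.9% and 3.76%, and the NRF-1 motif GCATGCGC in 11.9% and 4.20%. GABP and YY1 matches can overlap by the 3 letters AAG, and 29 members held none of the motifs. By subunit, GABP matches stood in 15 of 42 large-subunit and 11 of 25 small-subunit promoters, YY1 matches in 6 of 42 and 6 of 25, and NRF-1 matches in 7 of 42 and 1 of 25. The median difference with 6 arrays was 0.05 over the 26 members with a GABP match, 0.05 over the 12 with a YY1 match, −0.03 over the 8 with an NRF-1 match and 0.03 over the 29 with none. With 5 arrays these medians were 0.08, 0.10, −0.01 and 0.04. A match is a description of letters and not of binding.

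**Figure D5:**
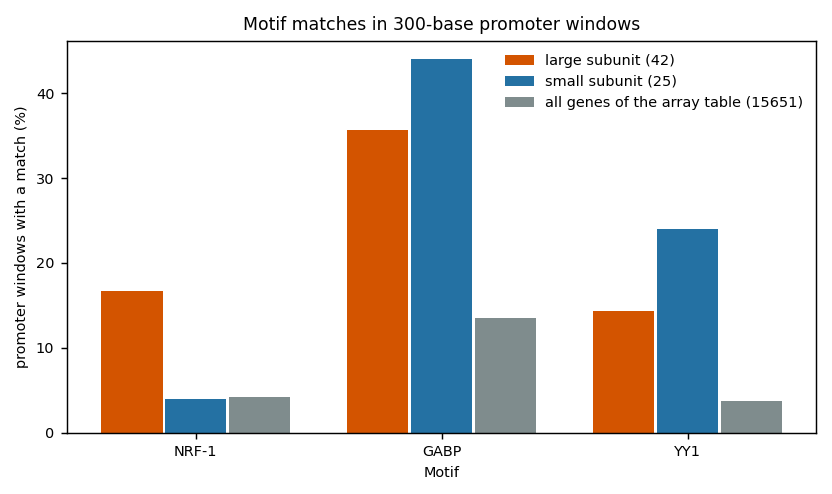
Share of promoter windows with at least 1 match to each motif on either strand, for large-subunit members (42 promoters), small-subunit members (25) and all genes of the array with a promoter in the table (15651). GABP and YY1 matches are more frequent in both subunits than over all genes, and NRF-1 matches stand in 16.7% of large-subunit and 4.0% of small-subunit promoters, against 4.20% over all genes, differences that were not tested.

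Many members start close to a gene on the other strand. Of the 67 with a promoter window, 26 had a head-to-head partner starting within 1000 bases, and 24 of these had a measured partner. With 6 arrays 0 of the 24 partners passed (limma; 4 at an unadjusted p under 0.05), and with 5 arrays 0 (5 at an unadjusted p under 0.05). These are 16.7% and 20.8% of the partners, against 11.2% and 14.9% of all genes in either direction. Member and partner had differences of the same sign in 11 of 24 pairings, and the pair Mrpl46 and Mrps11, 42 bases apart, is counted from both sides. Mrpl46 differed by −0.08 (SE 0.09) and Mrps11 by 0.09 (SE 0.07), and with 5 arrays they stood at −0.06 and 0.07.

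Several partners also serve mitochondria. Sars2, the mitochondrial seryl-tRNA synthetase gene that faces Mrps12, read 7.31, 7.44 and 7.69 on the arrays labelled Hspa4-/-, against 7.12, 7.28 and 7.24 in wild type. Its groups did not overlap (difference 0.27, SE 0.10; limma, adjusted p = 0.354), while Mrps12 stood at −0.08. Ndufb5, a complex I subunit gene that faces Mrpl47, differed by 0.21 (SE 0.08; limma, adjusted p = 0.404), while Mrpl47 differed by −0.04 (SE 0.07). Twnk, the mitochondrial DNA helicase gene, differed by −0.10 (SE 0.08), while its partner Mrpl43 stood at 0.12. Ncapd2, a condensin gene that faces Mrpl51, differed by 0.19 (SE 0.08; limma, adjusted p = 0.417), opposite to Mrpl51. With 5 arrays Sars2 stood at 0.35, Ndufb5 at 0.27, Twnk at −0.14 and Ncapd2 at 0.25. In these pairs member and partner had opposite signs with 6 arrays, while other pairs had the same sign. Ptcd2, which faces Mrps27, differed by 0.12 (SE 0.11), with Mrps27 at 0.16. Klc4, which faces Mrpl2, differed by 0.24 (SE 0.09; limma, adjusted p = 0.351), with Mrpl2 at 0.07. With 5 arrays Ptcd2 stood at 0.22 and Klc4 at 0.30.

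Other genes of mitochondrial translation went both ways, and 0 passed in either form of the comparison (limma). With 6 arrays, an unadjusted p under 0.05 was reached by 3 lower translation factor genes, 2 lower assembly genes and 1 higher synthetase gene. It was also reached by 3 higher and 1 lower gene of the list for control of mitochondrial gene expression. As shares these are 20%, 8.33%, 5.26%, 13.6% and 4.55% of their lists, against 5.64% of all genes on the higher side and 5.53% on the lower. With 5 arrays the translation factor list had 20% higher and 13.3% lower, and the control list 9.09% higher and 0% lower. All genes had 8.55% higher and 6.36% lower. The control list also holds mitochondrial chaperone and protease genes, and its lower gene with 6 arrays was the chaperonin gene Hspd1 (−0.23, SE 0.10). Malsu1, of mitoribosome assembly, was 1 of the 3 lower translation factor genes. Of 4 measured mitoribosomal proteins without the Mrp name, Dap3 differed by −0.002 (SE 0.10) and Ptcd3 by −0.15 (SE 0.10), with 6 arrays. Without Hspa4-/- replicate 1 they stood at 0.10 and −0.04. Among 15 translation factor genes the median was −0.05 with 6 arrays, where 5 were above 0, and 0.02 with 5 arrays, where 8 were. Mtif2, the initiation factor that loads the initiator tRNA, read 8.15, 8.14 and 8.19 on the arrays labelled Hspa4-/-, against 8.62, 8.40 and 8.33 in wild type (difference −0.29, SE 0.08; limma, adjusted p = 0.256), with no overlap. Mtrf1l, a release factor, differed by −0.30 (SE 0.11), and Slirp, which stabilises mitochondrial messenger RNAs, by 0.21 (SE 0.12), and with 5 arrays these 3 stood at −0.28, −0.39 and 0.34.

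Mitoribosome assembly and ribosomal RNA modification genes had a median of 0.02 over 24 genes. Fastkd2, of ribosomal RNA maturation, stood at −0.24 (SE 0.07; limma, adjusted p = 0.256). Nsun4, a methyltransferase gene, stood at −0.21 (SE 0.07; limma, adjusted p = 0.277), and in both the groups did not overlap. The median was 0.02 over 19 mitochondrial aminoacyl-tRNA synthetase genes and −0.07 over 13 genes of mitochondrial DNA transcription and replication, among them Tfam at 0.01 (SE 0.08) and Polrmt at 0.09 (SE 0.08). With 5 arrays the medians of these 3 lists were 0.04, 0.03 and −0.07. Over the 22 genes of the list for control of mitochondrial gene expression, chaperones and proteases included, the median was −0.003 with 6 arrays and 0.04 with 5. With 6 arrays Ppargc1b stood at 0.33 (SE 0.10; limma, adjusted p = 0.272) and Ppargc1a at −0.16 (SE 0.07). Nrf1 stood at 0.02 (SE 0.07), Gabpa at −0.03 (SE 0.10) and Yy1 at −0.005 (SE 0.07). With 5 arrays these 5 genes stood at 0.36, −0.18, 0.08, 0.04 and 0.03. Myc was the one nearest to the threshold with 5 arrays, at 0.73 (SE 0.12; limma, adjusted p = 0.0538).

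Myc read 6.86, 7.87 and 7.42 on the arrays labelled Hspa4-/-, against 6.97, 6.84 and 6.93 in wild type, so replicate 1 of Hspa4-/- lay within the wild-type range. Of 13 symbols of mitochondrially encoded proteins looked up, 0 were found among the probe sets with a symbol. The messenger RNAs that the mitoribosome translates were therefore not analysed here. Set beside 2 related gene families, the members' 6-array median of 0.04 lay between 0.01 over 34 cytosolic ribosomal protein genes and 0.11 over 76 nuclear subunit genes of oxidative phosphorylation, in which 0 passed (18 were higher and 0 lower at an unadjusted p under 0.05, limma). Those 18 are 23.7% of that list, against 5.64% of all genes and 12.6% of the 3539 genes whose level is like that of the members. The oxidative phosphorylation list read above that set, with a mean level per array from 9.14 to 9.34 against a range of 7.07 to 8.04. Genes of its own level were not compared. With 5 arrays the medians were 0.07 over the members, 0.05 over the cytosolic and 0.12 over the oxidative phosphorylation genes. The oxidative phosphorylation median by array was 0.04, 0.16 and 0.13 on the arrays labelled Hspa4-/-, against −0.02, 0.07 and −0.03 in wild type, again with wild-type replicate 2 highest of its group. Differences between these lists were not tested.

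Markers of other cell types moved with the labels in part, and in bulk tissue fewer cells of a type and less RNA per cell cannot be told apart. Cardiomyocyte markers were higher in 9 of 10 genes, with a mean level per array of 11.91 to 11.98 on the arrays labelled Hspa4-/- and 11.76 to 11.82 in wild type. Macrophage markers were lower in 7 of 8 genes, at 7.13 to 7.18 on the arrays labelled Hspa4-/- and 7.25 to 7.39 in wild type. Mesothelial markers were lower in 7 of 7 genes, at 6.19 to 6.49 on the arrays labelled Hspa4-/- and 6.48 to 6.64 in wild type, and Upk1b and Upk3b fell with 5 arrays (limma, adjusted p = 0.0330 and 0.0173). Endothelial markers were higher in 6 of 8 genes (median 0.13, and 0.15 with 5 arrays), as were smooth muscle and pericyte markers (median 0.11, and 0.19 with 5 arrays), beside a median of 0.11 over the cardiomyocyte markers. The other 8 marker lists had medians between −0.08 and 0.001 with 6 arrays. The part of cell composition in the members' values was not tested.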

How the data were processed

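Ventricle RNA of 6 mice was measured with probes along whole transcripts. The authors deposited 1 log2 value per probe set and array. The submitters' processing notes name R 2.13.0 and affy. How the values were background-corrected, normalised and summarised was not given in the sources used. With no background measure, signal over background is not known, and precision is limited by the number of arrays. Array means lay between 6.76 and 6.77. Pairs of arrays shared 11 to 30 identical values of 21225.

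Probe sets were named through the array's probe-to-gene table, where 20239 carry 1 symbol and 986 none, and 20239 gene numbers were found in RefSeq GRCm38.p6. Groups came from the titles. A 2-group limma model (version 3.58.1, lmFit and eBayes, R 4.3.3) was fitted to the deposited values of all 20239 genes, with Benjamini-Hochberg adjustment, and was tested on simulated data. The mitoribosomal genes, gene lists, 5-array form and tests were chosen with earlier results of these data known. Named members are those with a fixed role, the 5 of each subunit and direction with the smallest p, any that passed, and the 4 with the largest difference among those whose sign turned. A few further members and partner genes (Mrpl18, Mrpl43, Mrpl45, Mrpl46, Mrpl47, Mrps11, Mrps31 and the head-to-head partners other than Sars2 and Twnk) were named after their values were seen. Mrpl38 was named under a further planned rule, for the members of highest and lowest mean level. Otherwise levels were not ranked between genes, since brightness depends on the probes. Alternatives were low-value filters, quantile normalisation, subtracted medians, array weights, a trend and robust variance, a replicate block and leaving out each array. Counting Mrps18a and Mrps30 in the large subunit was added after the data were seen, as was the sorting by bacterial counterpart. No protein sequences were used here.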

Additional observations from a re-analysis of the deposited data

How the results depend on the processing

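Over the alternatives run, the count of mitoribosomal genes past the threshold with 6 arrays stayed at 0 except for 1 (Mrpl50) with array weights and, when each array was left out in turn, a range of 0 to 1, the 1 being without Hspa4-/- replicate 1. With 5 arrays the count was 1 with low-value filters, quantile normalisation and the trend and robust variance. It was 0 with array medians subtracted, 3 with array weights (Mrpl50, Mrps33 and Mrpl52), and 0 to 4 when each array was left out, the 4 (Mrpl50, Mrps33, Mrpl52 and Mrps26) being without wild-type replicate 2, where 875 of all genes passed. Hspa4 differed by −2.01 with 6 arrays and passed with limma's array weights (−2.54, adjusted p = 0.0488) and without Hspa4-/- replicate 1 (−2.89). That replicate was set aside for its Hspa4 value, so the pass without it is no test of Hspa4. The weighted difference also moved toward the value without that replicate. Over the arrays left out in turn, the Hspa4 difference ranged from −2.89 to −1.54. Subunit medians moved by less than the spread between arrays in every alternative run, and the large-subunit median lay between −0.006 and 0.07 with 6 arrays. With 6 arrays that spread was 0.07 for the large and 0.06 for the small subunit, beside medians of 0.03 and 0.06. A change of sign of the large-subunit median thus stays within it, and the check cannot show that the sign is stable. Same-numbered arrays did not deviate together (correlations over all genes of −0.17, 0.09 and −0.25), so the numbers were not taken to pair mice. With the replicate block 0 mitoribosomal genes passed with 6 arrays and 1 with 5, where Mrpl50 had a difference of −0.61 (adjusted p = 0.0287), against 2 and 134 of all genes. Among 52 members chosen by the naming rule or named later, a difference that passed in neither fit changed sign in 26 of 669 recomputed values with 6 arrays and 42 of 617 with 5, the largest of them 0.09 in size as reported. Over all 20239 genes, 0 passed with 6 arrays, against 2 with each low-value filter, 115 with array weights, 89 without Hspa4-/- replicate 1 and 112 without wild-type replicate 2. With 5 arrays 89 passed, against 156 and 167 with the filters, 36 with array medians subtracted, 321 with array weights and 2 to 875 when each array was left out, the 2 being without wild-type replicate 3. Signal over background is not known for these arrays.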
